A study of Mus musculus with 32 samples.

Results

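Col4a1 and Col4a2 encode the α1 and α2 chains of collagen IV, and the data below follow these and 8 further basement membrane genes in the cerebral cortex of 32 mice aged 6 weeks. The members are 10 of the 55401 genes in the table, and all 10 are among the 16042 genes with enough counts to be tested. Col4a1 and Col4a2 were picked because their counts were higher than in +/+ in both aneuploid genotypes, so their difference from +/+ is given here as a description, without a test. Col4a5, Lama2, Lama4, Lamb1, Lamc1, Nid1, Hspg2 and Sparc were added as other basement membrane genes for contrast.

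There were 10 Ts65Dn;Df(17)2 animals, 10 Dp(16)1/Df(16)8 animals and 12 euploid +/+ animals, with 5 females and 5 males by label in each aneuploid genotype and 6 of each sex in +/+. As background, Ts65Dn mice model Down syndrome with a freestanding additional chromosome, made of distal chromosome 16 joined to the centromeric end of chromosome 17, whereas Dp(16)1 is a duplication that lies within chromosome 16. Df(17)2 and Df(16)8 are engineered deletions on the chromosomes they name, carried by all animals of their group and by no +/+ animal. The rearrangements are inherited and not limited to a cell type, and the RNA came from cortex and not from sorted vessels. Col4a1 and Col4a2 lie on chromosome 8.

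Basement membranes are thin extracellular sheets. Laminins, which are trimers of an α, a β and a γ chain, assemble on the cell surface, collagen IV forms the covalently linked network, and nidogen and perlecan connect both. In the brain they surround the endothelial and mural cells of vessels and underlie the pial surface, and the α1 and α2 chains of collagen IV, in a trimer with α1 chains in excess, are their main collagen. Mutations of COL4A1 and COL4A2 cause small-vessel disease and haemorrhage in people.

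The gene pair is arranged head to head, and its start region is printed because one short stretch of DNA holds both annotated starts. Col4a1 (ENSMUSG00000031502.11) runs on the minus strand at chromosome 8, 11198423 to 11312826 (GRCm38), and Col4a2 (ENSMUSG00000031503.13) on the plus strand at 11312805 to 11449287. Their annotated transcripts overlap by 22 bases. The RefSeq windows of GRCm38.p6, from 250 bases before to 50 bases after each start, lie at chr8:11312777-11313076 on the minus strand for Col4a1 and at chr8:11312555-11312854 on the plus strand for Col4a2. Capitals mark the 78 bases that the windows share, read on opposite strands.
Col4a1: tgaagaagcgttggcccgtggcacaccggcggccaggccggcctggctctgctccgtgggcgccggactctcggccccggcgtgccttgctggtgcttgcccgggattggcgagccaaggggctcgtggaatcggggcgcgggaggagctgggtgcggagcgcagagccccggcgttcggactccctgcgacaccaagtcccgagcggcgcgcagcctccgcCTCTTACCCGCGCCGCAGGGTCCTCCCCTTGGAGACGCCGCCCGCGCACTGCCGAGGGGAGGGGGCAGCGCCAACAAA
Col4a2: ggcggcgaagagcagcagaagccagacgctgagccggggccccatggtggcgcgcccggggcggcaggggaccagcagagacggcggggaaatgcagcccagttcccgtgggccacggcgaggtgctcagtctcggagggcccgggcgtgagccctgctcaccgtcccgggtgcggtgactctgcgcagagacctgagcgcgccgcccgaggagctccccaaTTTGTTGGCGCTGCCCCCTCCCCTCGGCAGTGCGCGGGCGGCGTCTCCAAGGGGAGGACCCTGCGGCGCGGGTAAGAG

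The windows hold 74.0% G and C bases for Col4a1 and 73.7% for Col4a2, against a median of 52.7% over all 32851 promoter windows. CpG dinucleotides numbered 37 in the Col4a1 window and 33 in the Col4a2 window, against a median of 7. Letters were searched on both strands. GGGCGG, a GC box, occurred 1 time in the Col4a1 window and 3 times in the Col4a2 window, and in 35.7% of all windows. CCAAT occurred 1 time in each and in 37.4% of all windows. It lies outside the shared bases in the Col4a1 window, and in the Col4a2 window it runs into them with its last base. CCCTCCCC, described as the CTC box of the human gene pair, occurred 1 time in each at the same place within the shared bases, and in 10.8% of all windows. TATAAA was in neither window and in 13.6% of all windows. Windows were matched by symbol for 8 of the 10 members. Of these 8, 7 had GGGCGG, 5 had CCAAT, 4 had CCCTCCCC and 0 had TATAAA.

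Levels per kilobase of exon set the scale of the members. Over all 32 animals Sparc, a matricellular protein that binds collagen IV, had 42.3 ± 17.1 CPM per kb (SD over animals), where CPM are counts per 1000000 after TMM scaling. Col4a2 followed with 17.0 ± 3.28 and Col4a1 with 11.1 ± 1.84 CPM per kb. Lamc1, the γ1 chain of most laminins, stood at 7.85 ± 0.717 CPM per kb, apart from the genes below it. Lamb1 (β1 chain, 2.97 ± 0.786), Nid1 (nidogen 1, 2.63 ± 0.65), Hspg2 (perlecan, 2.14 ± 0.435) and Lama2 (α2 chain, 1.98 ± 0.219) each lay within the larger SD of their neighbour in this order, so their order is not firm. Col4a5, the X-linked α5 chain of collagen IV, had 1.43 ± 0.361 and Lama4, the α4 chain of endothelial laminin, 1.23 ± 0.174 CPM per kb.

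Transcripts of both α chains of the main collagen IV network were about 1.3- to 1.4-fold more abundant in the aneuploid cortex. Protein was not measured. Col4a1 ranged from 81.7 to 104 CPM with a median of 88.5 in Ts65Dn;Df(17)2 and from 80.8 to 106 CPM with a median of 90.0 in Dp(16)1/Df(16)8, against 56.5 to 81.9 CPM with a median of 69.7 in +/+. Of the aneuploid animals, 9 of 10 Ts65Dn;Df(17)2 and 9 of 10 Dp(16)1/Df(16)8 lay above the highest +/+ animal, and the overlap came from Ts65Dn;Df(17)2 replicate 1 and Dp(16)1/Df(16)8 replicate 4 at the low end and from +/+ replicate 3 at the high end. Means were 91.7 ± 9.08 CPM in Ts65Dn;Df(17)2 (SD, n = 10) and 91.5 ± 8.54 CPM in Dp(16)1/Df(16)8 (n = 10), against 68.9 ± 7.35 in +/+ (n = 12). The log2 fold change was 0.41 (SE 0.059) in each aneuploid genotype against +/+, a fold of 1.33.

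For Col4a2 the groups did not overlap. It ranged from 102.3 to 140.1 CPM with a median of 132 in Ts65Dn;Df(17)2 and from 102.2 to 144 CPM with a median of 126 in Dp(16)1/Df(16)8, against 70.8 to 101.4 CPM with a median of 87.6 in +/+. The lowest aneuploid animals, Dp(16)1/Df(16)8 replicate 1 and Ts65Dn;Df(17)2 replicate 5, were close above the highest +/+ animals. Means were 128 ± 11.97 CPM in Ts65Dn;Df(17)2 and 125 ± 13.1 CPM in Dp(16)1/Df(16)8, against 89.1 ± 9.55 in +/+. The log2 fold change was 0.53 (SE 0.062, 1.44-fold) in Ts65Dn;Df(17)2 and 0.50 (SE 0.062, 1.41-fold) in Dp(16)1/Df(16)8, both against the same +/+ animals. All libraries lay above all +/+ libraries for 0.33% of tested genes in Ts65Dn;Df(17)2 and for 0.243% in Dp(16)1/Df(16)8. For 38 genes, or 0.237%, this held in both, and 37 of them lie on chromosome 16, the other one being Col4a2. These shares rest on the contrast by which the pair was picked and are descriptions.

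**Figure D1:**
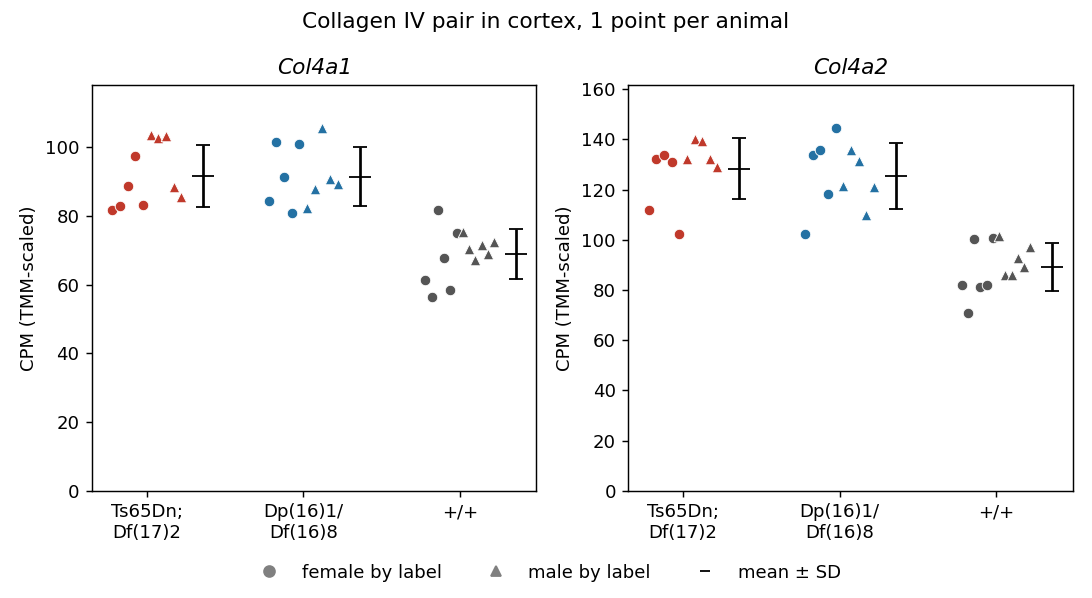
Col4a1 (left) and Col4a2 (right) in CPM, 1 point per animal, with Ts65Dn;Df(17)2 left of Dp(16)1/Df(16)8 and +/+ at the right. Circles are females and triangles males by label, and bars give mean ± SD. Every aneuploid animal lies above every +/+ animal for Col4a2 (at least 102.2 against at most 101.4 CPM), and for Col4a1 the lowest aneuploid animals (80.8 and 81.7 CPM) lie just under the highest +/+ animal (81.9 CPM).

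A library held 416 to 924 counts of Col4a1 and 534 to 1265 of Col4a2, so that counting error was at most 4.90% of a Col4a1 value and 4.33% of a Col4a2 value, below the spread between +/+ animals of 10.7% for each gene. Library totals were 5795479 to 11189548 counts, with a median of 7883104.5. Sex-specific transcripts matched the label in 31 of the 32 libraries. The exception is the library labelled Dp(16)1/Df(16)8 replicate 2, female. Without it the log2 fold changes in Dp(16)1/Df(16)8 were 0.39 for Col4a1 and 0.48 for Col4a2. Markers of cortical excitatory neurons summed to 971 to 1850 CPM (median 1478) in Ts65Dn;Df(17)2 and 905 to 2353 CPM (median 1524) in Dp(16)1/Df(16)8, against 1035 to 2394 (median 2133) in +/+. Animal numbers in the labels fall into 9 runs separated by gaps of more than 5. Dp(16)1/Df(16)8 was higher than +/+ in 6 of the 6 runs that hold both genotypes, by 0.29 to 0.61 on the log2 scale for Col4a1 and by 0.36 to 0.56 for Col4a2. Ts65Dn;Df(17)2 was higher in 2 of 2 runs, which hold 8 of its animals, by 0.25 and 0.49 for Col4a1 and by 0.39 and 0.54 for Col4a2. Some runs hold 1 Dp(16)1/Df(16)8 and 1 +/+ animal, and the Ts65Dn;Df(17)2 values of 0.25 and 0.39 rest on 1 +/+ animal. The runs divide the libraries by which the pair was picked, so their shared direction is a description.

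The comparison between the aneuploid genotypes sets a freestanding additional chromosome beside a duplication within a chromosome. The groups also carry different deletions and fall mostly into different runs of animal numbers, and these differences cannot be told apart. The comparison is not independent of the choice of the pair, since genes picked for being higher in both genotypes, from the same libraries, tend to differ little between them. The values of the pair and of its ratio are descriptions in this respect. In Ts65Dn;Df(17)2 against Dp(16)1/Df(16)8 the log2 difference was 0.00 (SE 0.062, 95% interval -0.13 to 0.13) for Col4a1 and 0.03 (SE 0.065, -0.10 to 0.16) for Col4a2. Of the 8 other members, 0 passed edgeR's quasi-likelihood test (Benjamini-Hochberg adjusted p at least 0.9998), 0 had an unadjusted p under 0.05, and DESeq2 and limma voom also called 0. Of all tested genes 0.0499% were called in this comparison and 4.1% had an unadjusted p under 0.05. The interval of Col4a1 spans folds of 0.916 to 1.09. The widest interval was that of Sparc (0.13, -0.32 to 0.58), and the highest estimate that of Nid1 (0.23, -0.06 to 0.52).

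The balance of both transcripts was measured as the log2 ratio of Col4a2 to Col4a1 CPM within each animal, without adjustment for exon length. It was 0.48 ± 0.12 in Ts65Dn;Df(17)2 (n = 10) and 0.45 ± 0.13 in Dp(16)1/Df(16)8 (n = 10), against 0.37 ± 0.068 in +/+ (n = 12). Ratios ran from 1.23 to 1.59 in Ts65Dn;Df(17)2 and from 1.21 to 1.54 in Dp(16)1/Df(16)8, against 1.20 to 1.40 in +/+, so the groups overlapped. Ts65Dn;Df(17)2 exceeded Dp(16)1/Df(16)8 by 0.03, less than the SD of either group (two-sided permutation test with 100000 permutations, p = 0.578).

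Animal to animal, the paired genes moved together. After subtracting the mean of genotype and sex, log2 CPM of Col4a1 and Col4a2 had a Pearson r of 0.70 (permutation p = 0.00017, adjusted over 14 relations 0.00238) and a Spearman rho of 0.67 (p = 0.0002, adjusted 0.0028) over 32 animals. Without the 2 animals farthest from the median of Col4a1, r was 0.67. Within groups r was 0.50 in Ts65Dn;Df(17)2, with 0.59 in Dp(16)1/Df(16)8 and 0.89 in +/+. Library total had an r of -0.03 with the Col4a1 deviations.

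**Figure D2:**
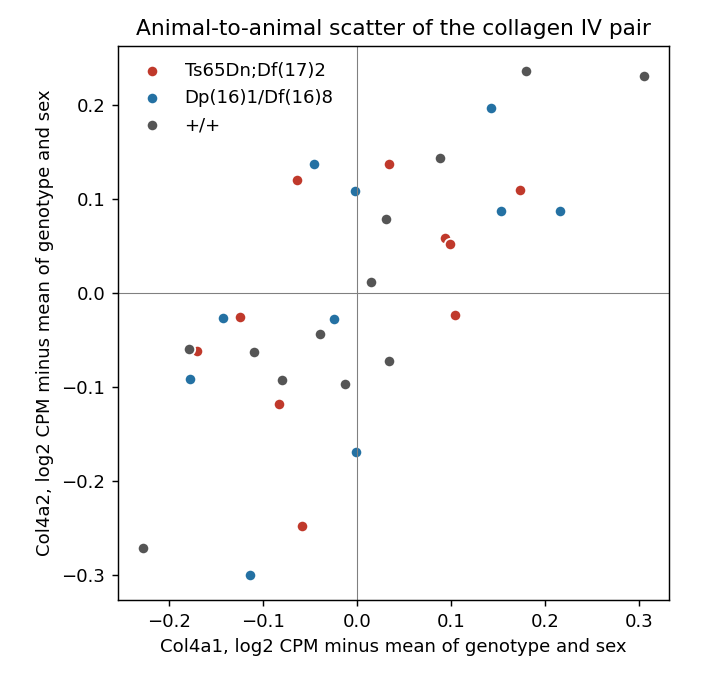
Deviation of each animal from the mean of its genotype and sex, in log2 CPM, for Col4a1 (x axis) and Col4a2 (y axis), coloured by genotype. Points of all 3 genotypes rise together, with an r of 0.70 over 32 animals.

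None of the relations of the 8 other members with the pair passed. Against the mean of the pair, r was highest for Lamb1 (r = 0.51, rho = 0.48, permutation p = 0.0516 and 0.0208, adjusted 0.241 and 0.145) followed by Hspg2 at 0.36 and Nid1 at 0.34. It was 0.30 for Col4a5, 0.18 for Lama4, 0.17 for Lama2, 0.17 for Sparc and 0.09 for Lamc1, whose r was -0.03 without the 2 farthest animals. Among 14 relations, which include 5 marker scores, that of Col4a1 with Col4a2 was the only one to pass. Ranked over all other tested genes by the same measure, the 8 genes with deviations most like those of the pair over 32 animals were Nxph4 (neurexophilin 4, r = 0.73), Piezo2 (a mechanosensitive channel, 0.72), Pbx4 (0.70), Cntnap5c (0.68), Plcz1 (0.67), Lhx9 (0.67), Oxtr (the oxytocin receptor, 0.67) and Rae1 (0.66), beside a median r of -0.002 over all tested genes. These 8 were picked as the highest of 16032 ranked genes, so their r are descriptions without a test. Plcz1, Lhx9, Piezo2, Pbx4 and Nxph4 are low transcripts, with means of 1.24 to 4.21 CPM. Lamb1 ranked 172 among all 16042 genes and Hspg2 1090.

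Laminin, nidogen, perlecan and Sparc transcript levels had mostly positive differences from +/+ that did not pass the test. Relative to +/+, 7 of the 8 other members had a positive log2 fold change in Ts65Dn;Df(17)2 and 8 of 8 in Dp(16)1/Df(16)8, with medians of 0.24 and 0.10, beside medians over all tested genes of 0.00 and 0.00. edgeR called 0 of 8 in Ts65Dn;Df(17)2, where it called 3.97% of all genes, and 0 of 8 in Dp(16)1/Df(16)8, where it called 0.573%. An unadjusted p under 0.05 was reached by 4 in Ts65Dn;Df(17)2 and by 0 in Dp(16)1/Df(16)8, and DESeq2 and limma voom called 0 in each. Over all tested genes 21.8% in Ts65Dn;Df(17)2 and 12.8% in Dp(16)1/Df(16)8 had an unadjusted p under 0.05 by edgeR, and these shares also stand beside the counts for the lists below. With the endothelial score of each library as a term, the mean log2 CPM of its endothelial markers, 7 of 8 were positive in Ts65Dn;Df(17)2 and 4 of 8 in Dp(16)1/Df(16)8, with medians of 0.15 and 0.00, and Nid1 in Dp(16)1/Df(16)8 stood at -0.10. With the meningeal score, chosen after seeing the data, 7 and 6 were positive (medians 0.11 and 0.04), and with the striatal score 7 and 7 (0.11 and 0.04). The median in Dp(16)1/Df(16)8 was 0.18 without Dp(16)1/Df(16)8 replicate 1. Both contrasts use the same 12 +/+ animals.

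Of the collagen and laminin chains, Col4a5 ranged from 7.11 to 16.1 CPM (median 10.5) in Ts65Dn;Df(17)2 and from 7.44 to 12.7 (median 9.48) in Dp(16)1/Df(16)8, against 5.17 to 13.2 (median 8.79) in +/+. Its log2 fold change was 0.27 (SE 0.13, edgeR adjusted p = 0.229) in Ts65Dn;Df(17)2 and 0.17 (SE 0.14, adjusted p = 0.620) in Dp(16)1/Df(16)8, with broadly overlapping groups. Lama2, part of the laminin of astrocyte endfeet and muscle, averaged 32.01 ± 3.59 CPM in Ts65Dn;Df(17)2 and 32.7 ± 3.67 CPM in Dp(16)1/Df(16)8, against 32.5 ± 3.79 in +/+. Its log2 fold changes were -0.02 (95% interval -0.16 to 0.12) and 0.01 (-0.13 to 0.15). These intervals lay below the estimates of Col4a1 and Col4a2. Those estimates come from the contrast by which the pair was picked, so this is a description and no test of a difference. Lama4 stood at 0.14 (SE 0.086, adjusted p = 0.347) in Ts65Dn;Df(17)2 and 0.04 (SE 0.087, adjusted p = 0.866) in Dp(16)1/Df(16)8.

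Lamc1 was the least variable member over all 32 animals (SD 9.13% of the mean). It ranged from 63.6 to 74.9 CPM (median 67.0) in Ts65Dn;Df(17)2 and from 58.7 to 74.8 (median 63.5) in Dp(16)1/Df(16)8, against 51.4 to 76.05 (median 60.6) in +/+. The highest single value was that of +/+ replicate 6, above all aneuploid animals. The log2 fold change was 0.14 (SE 0.053, adjusted p = 0.108) in Ts65Dn;Df(17)2 and 0.07 (SE 0.053, adjusted p = 0.563) in Dp(16)1/Df(16)8. Hspg2 ranged from 22.7 to 42.1 CPM (median 32.8) in Ts65Dn;Df(17)2 and from 22.9 to 37.7 (median 33.2) in Dp(16)1/Df(16)8, against 19.97 to 35.1 (median 28.5) in +/+. It stood at 0.29 (SE 0.11, adjusted p = 0.113) and 0.21 (SE 0.11, adjusted p = 0.415), with 4 of 10 Ts65Dn;Df(17)2 and 3 of 10 Dp(16)1/Df(16)8 animals above all +/+ animals. Without +/+ replicate 6, which also had the highest +/+ value of Hspg2, both genes passed in Ts65Dn;Df(17)2, at 0.17 for Lamc1 (adjusted p = 0.0322) and 0.34 for Hspg2 (adjusted p = 0.0455). Gm38009, a transcript yet to be experimentally established, overlaps Lamc1 on its strand and held 1393 counts over all libraries, so reads near it are uncertain for Lamc1.

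Nid1 ranged from 13.1 to 28.5 CPM (median 20.4) in Ts65Dn;Df(17)2 and from 9.27 to 28.5 (median 17.8) in Dp(16)1/Df(16)8, against 11.3 to 22.95 (median 16.9) in +/+. Its log2 fold change was 0.34 (SE 0.13, adjusted p = 0.128) in Ts65Dn;Df(17)2 and 0.11 (SE 0.14, adjusted p = 0.760) in Dp(16)1/Df(16)8. In Dp(16)1/Df(16)8 it was 0.00 without Dp(16)1/Df(16)8 replicate 4 and 0.18 without Dp(16)1/Df(16)8 replicate 1. Sparc varied most, from 109.7 to 288 CPM (median 175) in Ts65Dn;Df(17)2 and from 80.6 to 245 (median 146) in Dp(16)1/Df(16)8, against 74.5 to 377 (median 125) in +/+. A single animal, +/+ replicate 11, held the 377 CPM. The log2 fold change of Sparc was 0.33 (SE 0.21, adjusted p = 0.381) in Ts65Dn;Df(17)2 and 0.20 (SE 0.21, adjusted p = 0.719) in Dp(16)1/Df(16)8, and without +/+ replicate 11 it was 0.53 and 0.40.

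**Figure D3:**
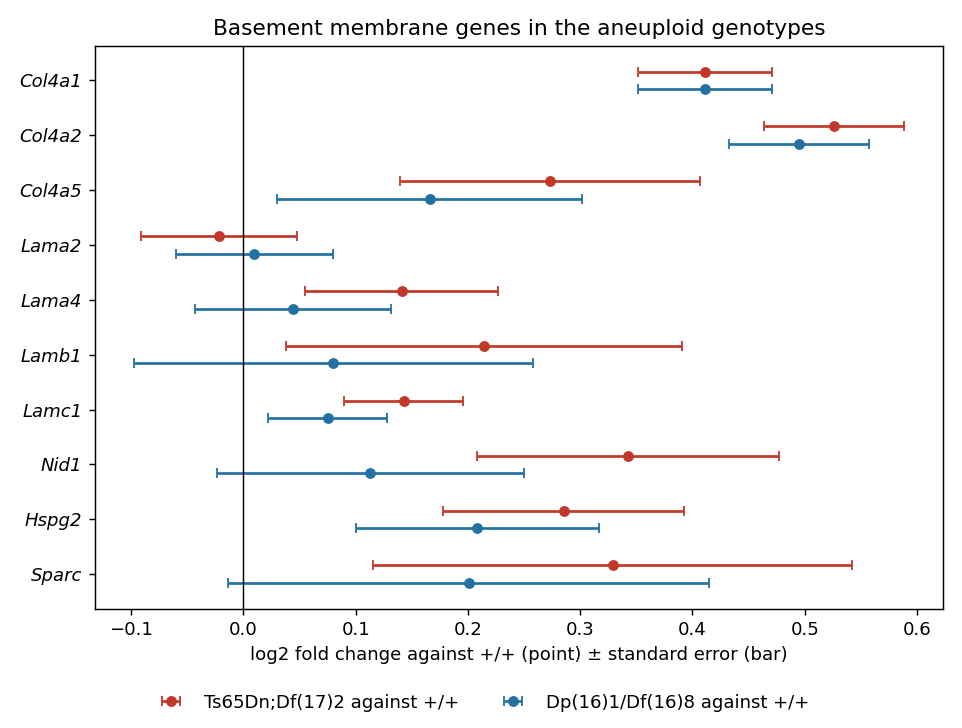
Log2 fold change of the 10 members against +/+, with Ts65Dn;Df(17)2 above Dp(16)1/Df(16)8 for each gene. Points are edgeR estimates and bars ± 1 standard error. Col4a1 (0.41 and 0.41) and Col4a2 (0.53 and 0.50), which were picked on this contrast, have short bars, and those of Sparc (SE 0.21) and Lamb1 (SE 0.18) are the longest.

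Lamb1 was set apart by 3 libraries. It was 8.91 CPM in Dp(16)1/Df(16)8 replicate 1, 9.90 in +/+ replicate 4 and 10.3 in +/+ replicate 5, whereas +/+ replicate 1 had 19.9 and the other 28 libraries had 24.8 to 41.4 CPM. Those 3 animals, all female, and Dp(16)1/Df(16)8 replicate 2, which had 29.7 CPM, carry consecutive numbers in the labels. The same 3 libraries had the 3 lowest values of Sparc (74.5 to 83.7 CPM). From the lowest of 32, Nid1 ranked 1, 2 and 4 in them, whereas Lamc1 ranked 12, 13 and 19. Their summed meningeal and fibroblast markers, at 95.04 to 102 CPM, ranked 1, 3 and 4 from the lowest. Markers of other cells stood apart in them too, with ranks of 1, 2 and 3 for microglia, 1, 3 and 5 for striatal neurons, 26, 27 and 28 for the oligodendrocyte lineage and 29, 30 and 32 for cortical excitatory neurons. The part of these cell types in the Lamb1 values was not tested. Means of Lamb1 were 31.8 ± 4.13 CPM in Ts65Dn;Df(17)2 and 29.3 ± 8.36 CPM in Dp(16)1/Df(16)8, against 27.6 ± 9.55 in +/+. The log2 fold change was 0.21 (SE 0.18, adjusted p = 0.508) in Ts65Dn;Df(17)2 and 0.08 (SE 0.18, adjusted p = 0.884) in Dp(16)1/Df(16)8. Without the 3 libraries, a choice made after seeing the data, it was 0.04 and 0.02, whereas Col4a1 stood at 0.39 and 0.40 and Col4a2 at 0.51 and 0.50.

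**Figure D4:**
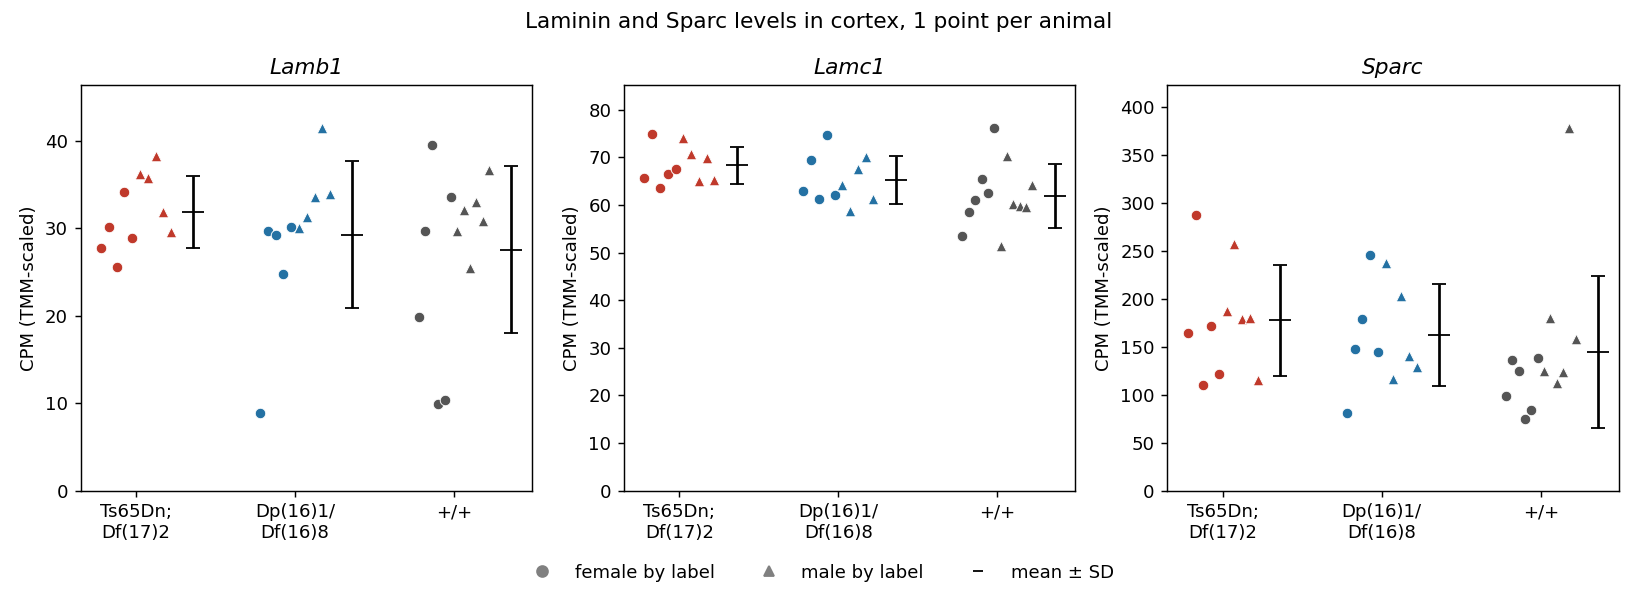
Lamb1, Lamc1 and Sparc in CPM, 1 point per animal, with Ts65Dn;Df(17)2 left of Dp(16)1/Df(16)8 and +/+ at the right. Circles are females and triangles males by label, and bars give mean ± SD. Lamb1 shows 3 low libraries at 8.91 to 10.3 CPM, Lamc1 is tight in all groups, and Sparc has 1 +/+ animal at 377 CPM.

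No sex difference of the members passed the test. Of the 10 members edgeR called 0 between females and males, beside 0.0748% of all genes. An unadjusted p under 0.05 was reached by 3, and by 9.94% of all genes, and DESeq2 and limma voom called 0. The female-minus-male log2 difference was -0.08 (adjusted p = 0.616) for Col4a1 and -0.07 (adjusted p = 0.675) for Col4a2. The 3 with an unadjusted p under 0.05 were X-linked Col4a5 at -0.30 (adjusted p = 0.434), Lamb1 at -0.36 (adjusted p = 0.439), whose 3 lowest libraries are female, and Hspg2 at -0.19 (adjusted p = 0.488). Within sexes the mean log2 CPM of Col4a2 in Ts65Dn;Df(17)2 exceeded that of +/+ by 0.51 in females and 0.55 in males, and in Dp(16)1/Df(16)8 by 0.56 in females and 0.43 in males. All these values keep Dp(16)1/Df(16)8 replicate 2 as female, against its sex-specific transcripts. Without that library edgeR also called 0 of the 10 members between the sexes, where Col4a1 stood at -0.09. It also called 0 for the sex difference of the change in each aneuploid genotype. The joint test of whether the changes differed by sex by edgeR called 0 of the 10 members, of which 0 had an unadjusted p under 0.05, and 0% of all genes, where 4.22% had one, and gave adjusted p of at least 0.996 for each member.

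None of the genes around the pair passed the test. Among genes that lie at least in part within 1 Mb of the pair, 11 others were tested, and edgeR, DESeq2 and limma voom called 0 of them in each of the 3 comparisons of genotypes. An unadjusted p under 0.05 was reached by 4 in Ts65Dn;Df(17)2, by 1 in Dp(16)1/Df(16)8 and by 1 between them, beside 21.8%, 12.8% and 4.1% of all tested genes. Nearest by start on the Col4a2 side, Naxd, which repairs hydrated NADH, stood at 0.09 and 0.11 in Ts65Dn;Df(17)2 and Dp(16)1/Df(16)8, and Irs2, an insulin receptor substrate on the other side, at -0.14 and -0.12. Myo16 stood at 0.21 (adjusted p = 0.0700) and 0.04 (adjusted p = 0.841). Gm18991, a low transcript with 0.907 ± 0.452 CPM in +/+, stood at 0.70 (SE 0.24, adjusted p = 0.0826) and 0.71 (SE 0.24, adjusted p = 0.226). Of the 11 genes it alone had an unadjusted p under 0.05 by edgeR in both contrasts with +/+. Between the aneuploid genotypes its difference was -0.01 (SE 0.24). Cars2, Ing1, Ankrd10, Arhgef7 and Sox1 ran from -0.18 to 0.37 and from -0.13 to 0.19. The estimates of the low transcript B020031H02Rik (1.51 ± 0.705 CPM in Ts65Dn;Df(17)2 and 0.700 ± 0.556 in +/+) were 1.09 (SE 0.41) and 0.50 (SE 0.44), and those of Sox1ot 0.68 (SE 0.30) and 0.50 (SE 0.30).

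**Figure D5:**
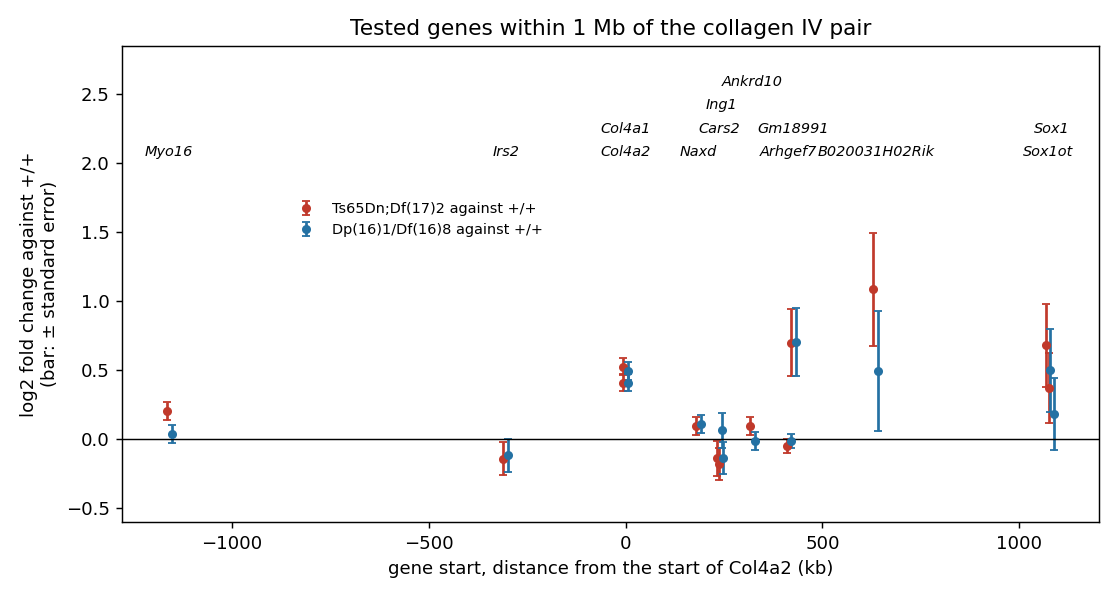
Log2 fold change against +/+ (y axis, bars ± 1 standard error) of the tested genes that lie at least in part within 1 Mb of the pair, placed by the distance of their start from that of Col4a2 in kb, where red is Ts65Dn;Df(17)2 and blue Dp(16)1/Df(16)8. The pair stands at 0.41 to 0.53 with short bars, and 0 of the 11 genes around it passed the test.

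The wider pathway was read from 6 lists with 102 tested genes. In Ts65Dn;Df(17)2 against +/+, 5 rose and 1 fell, beside 1.75% and 2.22% of all tested genes, and the median log2 fold change was 0.08 beside 0.00 over all genes. There 29 had an unadjusted p under 0.05 by edgeR, beside 21.8% of all tested genes. In Dp(16)1/Df(16)8, 0 passed with edgeR, DESeq2 and limma voom, 11 had an unadjusted p under 0.05, beside 12.8% of all tested genes, and the median was 0.07. Between the aneuploid genotypes 0 passed with each tool, and 3 had an unadjusted p under 0.05, beside 4.1% of all tested genes. The count of 6 in Ts65Dn;Df(17)2 changed with the fit, to 13 with DESeq2, 0 with runs of animal numbers as terms, 1 with the striatal score as a term, 14 without +/+ replicate 11, 11 without +/+ replicate 6 and 3 without Ts65Dn;Df(17)2 replicate 2.

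Among 24 other basement membrane components, Hmcn1 and Fbln5 rose in Ts65Dn;Df(17)2, where 1.75% of all tested genes rose. Hmcn1, the large extracellular protein hemicentin 1, averaged 26.7 ± 3.10 CPM in Ts65Dn;Df(17)2 and 18.1 ± 3.21 in +/+ (log2 fold change 0.56, SE 0.10, adjusted p = 8.21e-04). Fbln5, which organises elastic fibres, averaged 7.94 ± 2.78 CPM in Ts65Dn;Df(17)2 and 4.59 ± 1.45 in +/+ (0.78, SE 0.21, adjusted p = 0.0341). In Dp(16)1/Df(16)8 they stood at 0.26 and 0.45 without passing. Of the most abundant others, agrin (Agrn) stood at -0.10 in both genotypes, fibronectin (Fn1) at 0.06 and 0.05, and Lamb2, the laminin β2 chain, at 0.04 and 0.11.

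Of 16 other collagens 3 rose in Ts65Dn;Df(17)2, beside 1.75% of all tested genes. Fibrillar Col3a1 averaged 17.9 ± 6.96 CPM in Ts65Dn;Df(17)2 and 9.78 ± 3.28 in +/+ (0.87, SE 0.21, adjusted p = 0.0167), and Col5a2, which co-assembles with fibrillar collagens, 16.3 ± 4.64 CPM in Ts65Dn;Df(17)2 and 8.72 ± 5.21 in +/+ (0.92, SE 0.23, adjusted p = 0.0240). Neuronal transmembrane Col25a1 averaged 119 ± 20.1 CPM in Ts65Dn;Df(17)2 and 79.2 ± 22.3 in +/+ (0.60, SE 0.13, adjusted p = 0.00876). In Dp(16)1/Df(16)8 these 3 stood at 0.22, 0.45 and 0.46 without passing. Col3a1 is also a marker of meningeal cells, whose summed median was 203 CPM in Ts65Dn;Df(17)2 and 146 in +/+, and their part in these values was not tested. Of 11 matrix proteases and inhibitors, 9 were positive in Ts65Dn;Df(17)2, with a median log2 fold change of 0.08. The 1 called by edgeR went the other way, beside 2.22% of all tested genes that fell. This was Bmp1, a procollagen proteinase, at 41.8 ± 4.71 CPM in Ts65Dn;Df(17)2, against 52.9 ± 8.03 in +/+ (-0.34, adjusted p = 0.0211).

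Enzymes that build collagen IV and its receptors did not pass. Of 20 genes of synthesis and cross-linking edgeR, DESeq2 and limma voom called 0 in each contrast, with 3 by edgeR at an unadjusted p under 0.05 in Ts65Dn;Df(17)2 and 1 in Dp(16)1/Df(16)8. The prolyl hydroxylase subunit P4hb stood at 0.13 and 0.08, and Pxdn, which forms the sulfilimine bonds between collagen IV molecules, at -0.13 and -0.16. Of 14 receptors 0 passed with edgeR or limma voom, with 5 and 3 at an unadjusted p under 0.05 by edgeR, and DESeq2 called 1 in Ts65Dn;Df(17)2, the syndecan Sdc2, named after its value was seen. Itgb1, the β1 integrin subunit, stood at 0.12 in each genotype, and Dag1, dystroglycan, at -0.01 and 0.00. Of 17 TGF-beta ligands, receptors and responsive genes 0 passed with edgeR or limma voom, with 1 and 0 at an unadjusted p under 0.05, and DESeq2 called 1 in Ts65Dn;Df(17)2, Smad3 (-0.30 by edgeR).

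Endothelial and mural cells are the main makers of vascular collagen IV, and in bulk tissue fewer cells of a type and less RNA per cell cannot be told apart. The summed level of 22 endothelial markers ran from 435 to 647 CPM (median 563) in Ts65Dn;Df(17)2 and from 509 to 653 (median 585) in Dp(16)1/Df(16)8, against 445 to 639.6 (median 506) in +/+, and the ranges overlapped. Of these markers 18 of 22 were positive in Ts65Dn;Df(17)2, with 0 called by edgeR and limma voom, 1 by DESeq2 (Erg) and 6 at an unadjusted p under 0.05 by edgeR. In Dp(16)1/Df(16)8, 19 of 22 were positive, and 7 had an unadjusted p under 0.05 by edgeR, beside 12.8% of all tested genes. There edgeR called 1, the endothelial transcription factor Erg (0.68, adjusted p = 0.0150), beside 0.418% of all genes higher and 0.156% lower. As background, Erg lies on distal chromosome 16, and the part of its copy number in these calls was not tested. Erg is also among the markers of the endothelial score. The 14 tested mural markers summed to a median of 324 CPM in Ts65Dn;Df(17)2 and 317 CPM in Dp(16)1/Df(16)8, against 279 in +/+. Of them edgeR, DESeq2 and limma voom called 0, with 1 and 2 at an unadjusted p under 0.05 by edgeR, and their part in the pair's levels was not tested. The 17 markers of meningeal cells and fibroblasts ran from 95.9 to 246 CPM (median 203) in Ts65Dn;Df(17)2 and from 95.04 to 235 (median 165) in Dp(16)1/Df(16)8, against 101 to 208 (median 146) in +/+. In each genotype 16 of 17 were positive, with median log2 fold changes of 0.30 and 0.14. By edgeR 1 rose in Ts65Dn;Df(17)2 (Col3a1), beside 1.75% of all tested genes, and 0 passed in Dp(16)1/Df(16)8. At an unadjusted p under 0.05 by edgeR there were 4 and 1, beside 21.8% and 12.8% of all tested genes. Striatal neuron markers had medians of 2779 CPM in Ts65Dn;Df(17)2 and 2837 CPM in Dp(16)1/Df(16)8, against 973 in +/+, and with their score as a term Col4a1 stood at 0.41 in both genotypes and Col4a2 at 0.52 and 0.49. No listed marker of these cell types was at 0 in every animal of a group. With the endothelial score as a term of the fit, Col4a1 stood at 0.40 in both genotypes and Col4a2 at 0.51 and 0.47. With the meningeal score, chosen after seeing the data, Col4a1 was 0.38 in Ts65Dn;Df(17)2 and 0.39 in Dp(16)1/Df(16)8, and Col4a2 0.47 and 0.46. Over animals the endothelial score had an r of 0.11 with the pair, the mural score 0.27 and the meningeal score 0.44 (adjusted p = 0.681, 0.382 and 0.208).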

How the data were processed

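The authors deposited whole-number counts per gene for 32 cortex libraries, without normalization. RNA was ribodepleted, per the labels' protocols. Per the submitters' processing notes, bcl2fastq 2.20, STAR 2.7.9a and Subread 1.6.4 (featureCounts) were used, and GRCm38.p6 and GRCh38 are the builds named. The strand setting is not given in the sources used here, so overlapping genes may share reads. The members and all gene lists were chosen with earlier results of these data known.

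Genes were filtered with filterByExpr (16042 kept, with 99.7% of counts), scaled by TMM and fitted over all 32 libraries with edgeR 4.0.16 in R 4.3.3, with genotype and sex as terms. Quasi-likelihood p-values were adjusted over all tested genes (Benjamini-Hochberg, threshold 0.05). A standard error is the log2 fold change over the square root of F, and log2 CPM used a prior count of 2. A further fit held the genotype by sex interaction. Deviations from the mean of genotype and sex were correlated with 100000 two-sided permutations. The alternatives were DESeq2 1.42.0, limma voom 3.58.1, RLE scaling, no filter, the compared genotypes alone, marker scores or runs of animal numbers as terms, and libraries left out. The fit was tested on simulated counts that held no differences in cell content or animal numbers, so that test does not cover such differences. Named genes are the members, the called genes and the most abundant genes of each list, the tested genes within 1 Mb and the 8 genes most like the pair. Others are said to have been chosen after their values were seen. Labels number the animals but do not give litters, so p-values measure the spread between these animals. Counting errors cover counting alone, since reads without molecular identifiers are not independent molecules.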

Additional observations from a re-analysis of the deposited data

Results flagged for a closer look

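Lamb1 stood at 8.91 CPM in Dp(16)1/Df(16)8 replicate 1, far below the other 9 animals of its genotype, which had 24.8 to 41.4 CPM. It is the 1 value set apart in this way among 20 groups checked, 10 members in 2 genotypes, and chance flags about 1 group in 20. The +/+ group was too large for this criterion, and 2 of its animals were as low, at 9.90 and 10.3 CPM.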

How the results depend on the processing

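The log2 fold changes of the pair kept their direction, and moved by less than the spread between animals, under all 12 alternatives and with each of the 32 libraries left out in turn. The pair was picked for this direction in the same libraries, so its persistence is a description and no independent check. With 1 library left out, Ts65Dn;Df(17)2 against +/+ ran from 0.39 to 0.44 for Col4a1 and from 0.50 to 0.55 for Col4a2, and Dp(16)1/Df(16)8 against +/+ from 0.39 to 0.44 and from 0.47 to 0.52. Of the 8 other members, 0 to 2 were called in Ts65Dn;Df(17)2 with 1 library left out (2 without +/+ replicate 6) and 0 in Dp(16)1/Df(16)8. Counts over all genes moved most. Against 637 genes called in Ts65Dn;Df(17)2, 331 were called with no filter, 1069 with DESeq2, 280 without the 2 animals numbered below 30000, 147, 256 and 193 with the striatal, endothelial or meningeal score as a term, 77 with runs of animal numbers as terms, 234 without the 3 libraries of lowest Lamb1, and 264 (without Ts65Dn;Df(17)2 replicate 2) to 1486 (without +/+ replicate 11) with 1 library left out. Against 92 in Dp(16)1/Df(16)8, 145 were called with DESeq2, 166 with runs as terms and 74 to 222 (without Dp(16)1/Df(16)8 replicate 1) with 1 library left out, with 165 without +/+ replicate 11. The 8 called between the aneuploid genotypes became 2 with runs as terms and 7 to 10 with 1 library left out. Of the 6 lists, 6 genes called in Ts65Dn;Df(17)2 became 13 with DESeq2, 1, 3 and 2 with the striatal, endothelial and meningeal scores, 0 with runs as terms, 3 without the 3 libraries of lowest Lamb1 and 3 to 14 with 1 library left out. The 0 of Dp(16)1/Df(16)8 became 1 with runs as terms and 0 to 1 with 1 library left out. The cause of these shifts was not tested. The meningeal score and the removal of the 3 libraries were chosen after seeing the data. No paired analysis was possible because the labels give each animal a number of its own, and runs of numbers, some of which hold several animals of a genotype, could enter only as the terms above. Members with few counts, such as Col4a5 with 40 to 115 counts a library, have counting errors of up to 15.8%.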

Other observations

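Markers of other cortical cells also differed between genotypes. Of 12 markers of cortical excitatory neurons 7 fell in Ts65Dn;Df(17)2, beside 2.22% of all tested genes, among them Rorb of layer 4 (-0.55, edgeR adjusted p = 0.0122), named after its value was seen. In Dp(16)1/Df(16)8 edgeR, DESeq2 and limma voom called 0 of the 12, with 4 at an unadjusted p under 0.05 by edgeR. The 15 striatal markers summed to 1036 to 3757 CPM in Ts65Dn;Df(17)2 and 490 to 4101 CPM in Dp(16)1/Df(16)8, against 454 to 4266 in +/+. All 15 had positive fold changes in both, and the 3 tools called 0, with 1 and 0 at an unadjusted p under 0.05 by edgeR, 0 and 0 by DESeq2, and 13 and 0 by limma voom. Their score had an r of -0.04 with the pair over 32 animals (permutation p = 0.867). Of 13 astrocyte markers Aldoc, Clu and Fgfr3 fell in Ts65Dn;Df(17)2, beside the same 2.22%, and Clu also in Dp(16)1/Df(16)8 (-0.18, adjusted p = 0.0232), where 0.156% of all tested genes fell. In Ts65Dn;Df(17)2 the protease Ctss rose (0.44, edgeR adjusted p = 0.00372), the 1 called of 10 microglia markers, beside 1.75% of all tested genes. Of these 10, 6 were positive, with a median of 0.04. Cspg5 fell (-0.13, edgeR adjusted p = 0.0406), the 1 called of 11 oligodendrocyte lineage markers, beside 2.22%. It went against its list, where 9 of 11 were positive, with a median of 0.06. Choroid plexus markers reached 2028 CPM in 1 +/+ animal, against a median of 232 in that group. Blood markers summed to medians of 65.9 CPM in Ts65Dn;Df(17)2 and 55.5 CPM in Dp(16)1/Df(16)8, against 60.0 in +/+.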
